A study of Mus musculus with 4 samples.

Results

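Notum, Wif1, Dkk2 and Dkk3 are genes for secreted proteins that act on Wnt signaling outside the cell, and their transcripts were followed here through small intestinal adenomas of mice. They were taken by name from the gene tables, as 4 of 27514 genes listed for all libraries, and described by their level, in counts of unique molecular identifiers (UMIs) per 1000000 UMIs (CPM), and by their joint detection in single cells.

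Wnt ligands carry a lipid and bind Frizzled together with the coreceptors LRP5 and LRP6, which stabilizes β-catenin and switches on transcription by TCF and LEF factors. Notum is a secreted carboxylesterase that removes this lipid, Wif1 binds the ligands, Dkk2 binds LRP5 and LRP6, and Dkk3 is a divergent Dickkopf protein whose action on Wnt is less settled. Apc takes part in the destruction of β-catenin downstream of the ligands and receptors, so cells without Apc keep the pathway on when ligands are blocked, and several secreted inhibitors are themselves Wnt targets.

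The samples were adenomas of C57BL/6 mice aged 11 weeks, processed by droplet-based 3′ single-cell RNA sequencing. ApcMin libraries came from ApcMin/+;Lef1 +/+ mice and VApcMinL libraries from ApcMin/+;Lef1 fl/fl;Villin-Cre mice, in which Cre is driven constitutively in the intestinal epithelium; both groups carry the mutant Apc allele. Each group had 2 libraries, with the version 2 reagent kit for replicate 1 and version 3 for replicate 2 (kit 2 and kit 3 below), and each library pooled 3 to 10 tumors without sorting. The comparison of the groups asks whether deletion of Lef1, a Wnt transcription factor, changes the adenoma cells. P values between genotypes therefore rest on the spread between these pools of tumors and, with few libraries, on the trend of that spread over all genes. P values between cells of the same libraries rest on how evenly a difference recurs from library to library.

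The libraries held from 44660305 to 128247396 UMIs. Barcodes were kept at 2000 UMIs or more and at most 20% mitochondrial UMIs, which left 2471 cells in ApcMin 1, 2532 in VApcMinL 1, 2069 in ApcMin 2 and 4214 in VApcMinL 2, or 11286 of 17450 barcodes above the UMI floor. A cell was gated by marker genes as epithelial (9377 cells), immune (1141) or stromal (416, of which 244 fibroblast and 169 endothelial), and 352 cells passed no gate. The epithelial marker sum was from 8517 to 11361 CPM in epithelial cells and from 469 to 826 in immune cells. Kit 3 libraries had few stromal cells, 50 and 31, against 219 and 116 with kit 2. Libraries shared at most 9 cell barcodes.

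Some values of the VApcMinL libraries went against their labels. Lef1 was at 4.73 and 9.32 CPM in epithelial cells of ApcMin 1 and 2, and at 10.6 and 15.2 in VApcMinL 1 and 2. Over all epithelial cells it was thus higher in the libraries labelled as deleted with either kit. In the epithelial cells with 2 or more Wnt target UMIs, described below, the kits differed. Lef1 was there at 12.2 CPM in ApcMin 1 and 38.4 in VApcMinL 1, but at 46.7 in ApcMin 2 and 28.6 in VApcMinL 2. The counts are 3′ tags, and whether they lie in the deleted exons is not given in the sources used here, so Lef1 does not check the deletion. All mice were labelled male, yet Xist, the RNA of the inactive X chromosome, was at 789 CPM in epithelial cells of VApcMinL 1 and at 285 in VApcMinL 2, against 0.102 and 0.211 in ApcMin 1 and 2. Xist thus ran with the genotype label. The comparisons of the groups did not split cells by Xist, so genotype and sex cannot be told apart in them. VApcMinL 2 also held cells with Y-linked UMIs and without Xist, which are set beside those of ApcMin 2 at the end. Libraries are named by their labels below, genotype values are given for each kit, and results across cell types were repeated in the ApcMin libraries alone.

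Of the 4 genes, 2 had an entry among the RefSeq promoters (GRCm38.p6), Dkk2 and Wif1. Their sequences upstream of the annotated start are shown because TCF and LEF factors bind a core motif, CTTTG, set in capitals, and the genes are compared below with other Wnt targets. The Dkk2 sequence is chr3:132085042-132085291 (plus strand, 250 bases) and ends 1 base before the gene, which spans 132085292 to 132180304. The Wif1 sequence is chr10:121033754-121033959 (plus strand, 206 bases) and ends 1 base before a gene that spans 121033960 to 121100650.
Dkk2: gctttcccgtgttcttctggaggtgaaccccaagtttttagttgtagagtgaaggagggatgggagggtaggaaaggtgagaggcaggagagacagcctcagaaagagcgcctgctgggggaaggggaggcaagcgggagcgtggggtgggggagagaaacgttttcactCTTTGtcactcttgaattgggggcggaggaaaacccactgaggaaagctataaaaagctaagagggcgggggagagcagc
Wif1: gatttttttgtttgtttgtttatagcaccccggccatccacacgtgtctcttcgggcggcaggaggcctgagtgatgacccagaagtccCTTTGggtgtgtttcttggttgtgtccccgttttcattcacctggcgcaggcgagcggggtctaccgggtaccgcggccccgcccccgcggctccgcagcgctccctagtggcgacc
On both strands, each sequence held 1 CTTTG, a pentamer found in 48.6% of 32851 RefSeq promoters over 250 bases. The Dkk2 core read CTTTGT, present in 16.5% of promoters, and neither sequence held CTTTGA (13.8%) or CTTTGAT (3.21%). These matches are letters and not binding sites. Notum lies on chromosome 11 (120653788 to 120661175, minus strand) and Dkk3 on chromosome 7 (112116017 to 112159057, minus strand).

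Each gene had its own distribution over the cell types. Notum was an epithelial transcript, Wif1 was higher in epithelial than in immune cells, with UMIs in a few fibroblasts, Dkk3 was highest in fibroblasts, and Dkk2 was in epithelial and endothelial cells and was not detected in fibroblasts. Levels of one gene are compared between cells, not between genes, since counts of 3′ ends were not scaled for length. The RNA of nearly empty barcodes (at most 100 UMIs) is given as the level of free RNA. In sums of UMIs, fewer expressing cells and less RNA per cell cannot be told apart, so shares of positive cells follow.

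Notum, the Wnt deacylase, was at 47.6 CPM in epithelial cells of ApcMin 1, 156 in VApcMinL 1, 74.5 in ApcMin 2 and 64.3 in VApcMinL 2. In immune cells of the same libraries it was at 1.07, 12.5, 1.95 and 5.09, and in fibroblasts at 1.15, 11.5, 1.77 and 0. Epithelial cells were above both in every library, and VApcMinL 1, highest in epithelium, was highest in the other cells too. Free RNA held 25.05, 82.2, 44.1 and 37.5 CPM of Notum, in the same order of libraries as the epithelium.

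Wif1, a Wnt-binding inhibitor, was at 4.56, 80.6, 46.1 and 16.6 CPM in epithelial cells of ApcMin 1, VApcMinL 1, ApcMin 2 and VApcMinL 2. The epithelial levels spread more than those of Notum, and 1 cell of ApcMin 2 held 252 of that library's 2627 epithelial Wif1 UMIs. Free RNA held 3.48, 37.4, 23.1 and 15.3 CPM, little below the epithelial level in ApcMin 1 and VApcMinL 2. Fibroblasts had 4.62, 43.9, 55.0 and 4.40 CPM, near free RNA in the kit 2 libraries, above it in ApcMin 2 and below it in VApcMinL 2. These came from 3, 6, 4 and 1 cells, and in ApcMin 2 a single fibroblast, with 515 fibroblast-marker, 3 epithelial-marker and 0 Notum UMIs, held 26 of the 31 Wif1 UMIs. Of these 14 fibroblasts, 13 also had Dkk3 UMIs. Immune cells had at most 2.64 CPM of Wif1, and endothelial cells had any in VApcMinL 1 only, with 2 UMIs in 1 cell.

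Dkk3 was at 147, 199, 113 and 96.8 CPM in fibroblasts of ApcMin 1, VApcMinL 1, ApcMin 2 and VApcMinL 2, where 60.7%, 68.9%, 69.0% and 58.3% of cells were positive. Epithelial cells had 5.07, 31.8, 19.3 and 9.38, immune cells 6.97, 7.25, 2.93 and 11.9, and free RNA 8.12, 15.3, 13.0 and 11.8 CPM. Fibroblasts were thus above all other cells in every library, while epithelial cells were below free RNA in ApcMin 1 and VApcMinL 2 and above it in the other libraries. Endothelial cells had 1 UMI in each kit 2 library and 0 with kit 3.

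Dkk2, the LRP5 and LRP6 ligand, had the fewest UMIs, with 64, 241, 335 and 371 UMIs over all epithelial cells of ApcMin 1, VApcMinL 1, ApcMin 2 and VApcMinL 2, or 2.18, 6.85, 5.88 and 3.65 CPM. Fibroblasts held 0 UMIs in all libraries, which allows up to 3.46, 6.93, 5.32 and 13.2 CPM. Endothelial cells had 16, 20, 4 and 0 UMIs, that is 29.2, 59.9 and 47.8 CPM, with a limit of 40.9 in VApcMinL 2. The endothelial UMIs lay in 7, 10 and 1 cells, and the kit 3 libraries had only 8 and 7 endothelial cells. In free RNA, Dkk2 was at 7.42, 8.36, 2.20 and 4.16, so that in ApcMin 1, VApcMinL 1 and VApcMinL 2 it exceeded the epithelial level.

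**Figure D1:**
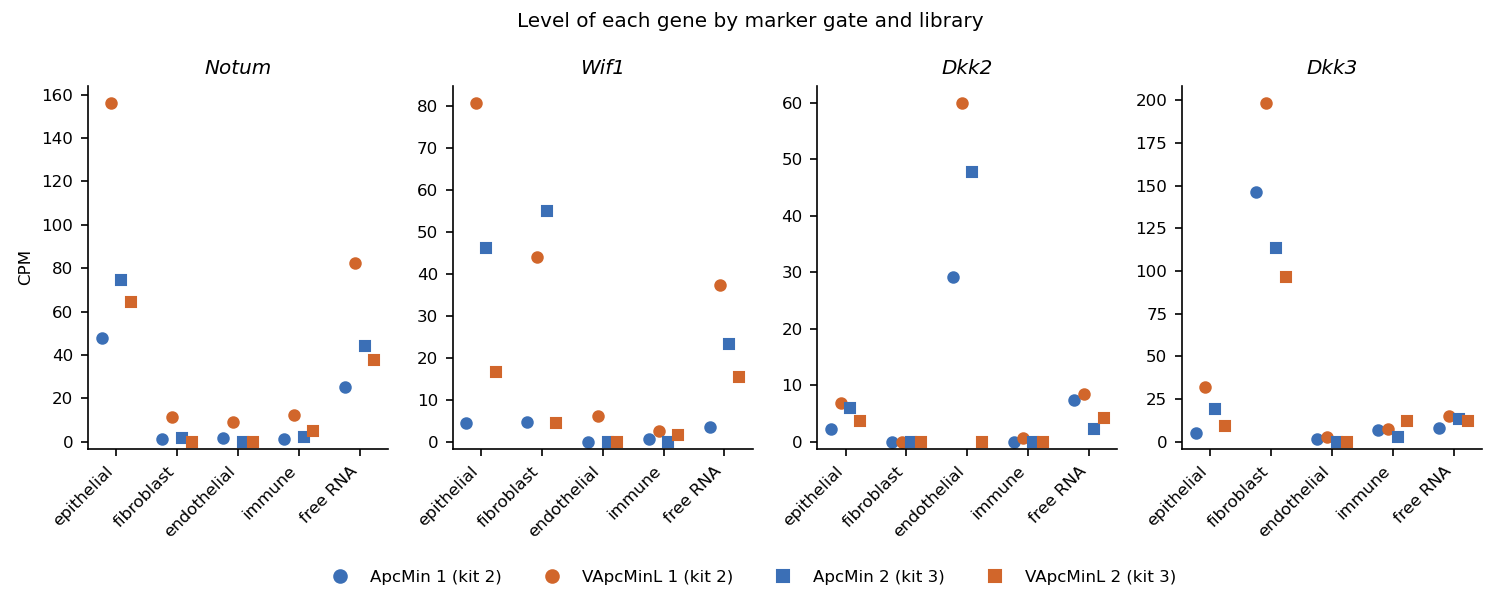
CPM of each gene (y axis, linear, 1 scale per panel) in each gate and in free RNA (x axis), 1 point per library, circles for kit 2 and squares for kit 3. Notum is highest in epithelial cells, Dkk3 in fibroblasts (96.8 to 199), and Dkk2 is at 0 in fibroblasts of all libraries.

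Sums per library and gate were compared in 1 fit with edgeR's quasi-likelihood test, with the library as a block and the Benjamini-Hochberg adjustment over 10953 genes. Notum was higher in epithelial than in stromal cells by 4.92 on the log2 scale (SE 0.37, adjusted p = 2.7e-07) and Wif1 by 1.09 (SE 0.37, adjusted p = 0.022), where 27.9% of genes were called higher. Dkk3 was lower in epithelial cells by 2.49 (log2 change -2.49, SE 0.40, adjusted p = 1.9e-04), where 27.9% of genes were called lower. Dkk2 did not pass the count filter in this fit. With no filter its log2 change was -0.94 (adjusted p = 0.099) between epithelial and stromal cells and 4.64 (adjusted p = 3.1e-04) between epithelial and immune cells. It passed the filter without ApcMin 2 or VApcMinL 2 and was then called lower in epithelial than in stromal cells, by -1.50 (adjusted p = 0.029) and -1.29 (adjusted p = 0.034), and higher than in immune cells, by 4.03 (adjusted p = 0.010) and 4.27 (adjusted p = 0.0055). In the ApcMin libraries alone, where it also passed, neither was called (-1.07, adjusted p = 0.30, and 8.81, adjusted p = 0.059). The Wif1 call was lost without VApcMinL 1 (log2 change 0.71, adjusted p = 0.25), in the ApcMin libraries alone (0.54, adjusted p = 0.44), at a gate of 90% (0.77, adjusted p = 0.080) and with DESeq2 (1.09, adjusted p = 0.061).

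Against immune cells, epithelial Notum was higher by 4.00 (log2, SE 0.31, edgeR adjusted p = 3.2e-07) and Wif1 by 4.56 (SE 0.53, adjusted p = 1.2e-05), with 28.2% of genes called higher. Dkk3 had a log2 change of 0.77 (SE 0.51, adjusted p = 0.22) and was not called. Stromal cells were above immune cells for Dkk3 (log2 change 3.26, SE 0.51, adjusted p = 2.3e-04) and Wif1 (3.47, SE 0.64, adjusted p = 7.3e-04), in a comparison that called 21.5% of genes higher. The Notum value was -0.92 (SE 0.55, adjusted p = 0.19).

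Among 14 other secreted Wnt antagonists, only Sfrp1 and Igfbp4 passed the filter in the fit across gates, and both were lower in epithelial than in stromal cells, by log2 changes of -10.3 and -2.14. Sfrp1, a soluble Frizzled-related protein, was at 140 to 244 CPM in stromal and at most 0.41 in epithelial cells. Igfbp4, a binding protein for insulin-like growth factors that also antagonizes Wnt, was at 119 to 303 in epithelial and 572 to 1674 in stromal cells. Frzb, another Frizzled-related protein, was detected in stromal cells of all libraries (6.65 to 43.0 CPM), while Dkk1 and Cer1 had 0 UMIs in epithelial, immune and stromal cells. Of the 6 receptors and enzymes, 4 were tested and 3 were lower in epithelial cells: the Dickkopf receptor Kremen1 (log2 change -2.33), the Wnt carrier Wls (-1.82) and Lrp6 (-0.63). All 10 Wnt targets, tested as a list of known feedback and stem cell genes, were higher in epithelial than in stromal cells. Their median log2 change was 3.58, beside 0.03 over all genes.

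Within the epithelium, each cell was placed by its Wnt target UMIs, drawing 2000 UMIs per cell so that depth did not enter, with Axin2, Nkd1, Lgr5, Ascl2, Rnf43, Znrf3, Sp5, Tcf7, Prox1 and Tnfrsf19 as targets. Levels of all 4 inhibitors were higher in cells with many Wnt target UMIs, least evenly for Dkk2. From cells with 0 to cells with 4 or more target UMIs, Notum went from 28.3 to 224 CPM in ApcMin 1, from 19.6 to 833 in VApcMinL 1, from 7.74 to 531 in ApcMin 2 and from 33.4 to 193 in VApcMinL 2. Wif1 went from 1.24 to 84.2, 3.42 to 523, 0.752 to 438 and 3.90 to 146. Both genes were higher at each step of target UMIs in every library. The top bin held 29, 235, 134 and 226 cells.

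Dkk3 went from 1.68 to 61.6, 4.72 to 165, 2.41 to 125 and 3.42 to 50.4 CPM between the same bins, in the order of libraries just given. Dkk2 went from 1.30 to 4.11, 1.62 to 19.2, 1.40 to 31.7 and 2.35 to 5.25. In ApcMin 1, Dkk2 was at 4.46 with 1 target UMI and 2.17 with 2 or 3, and its top bin held 2 Dkk2 UMIs, under the limit of 3. In VApcMinL 2 it was at 4.42, 5.0 and 5.25 over the last 3 bins. In ApcMin 2 a single cell held 75 of the 158 Dkk2 UMIs of the top bin, and 75 of 335 in the epithelium. Without the cell with the most Dkk2 UMIs of each bin, the top bin was at 17.0 in ApcMin 2 and 15.5 in VApcMinL 1. The bin below was then at 11.6 and 13.9, and at 16.1 and 16.7 with all its cells. In VApcMinL 2 the top bin was then at 3.85 and the bin below at 4.53. Leaving out these cells was chosen after the values were seen.

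**Figure D2:**
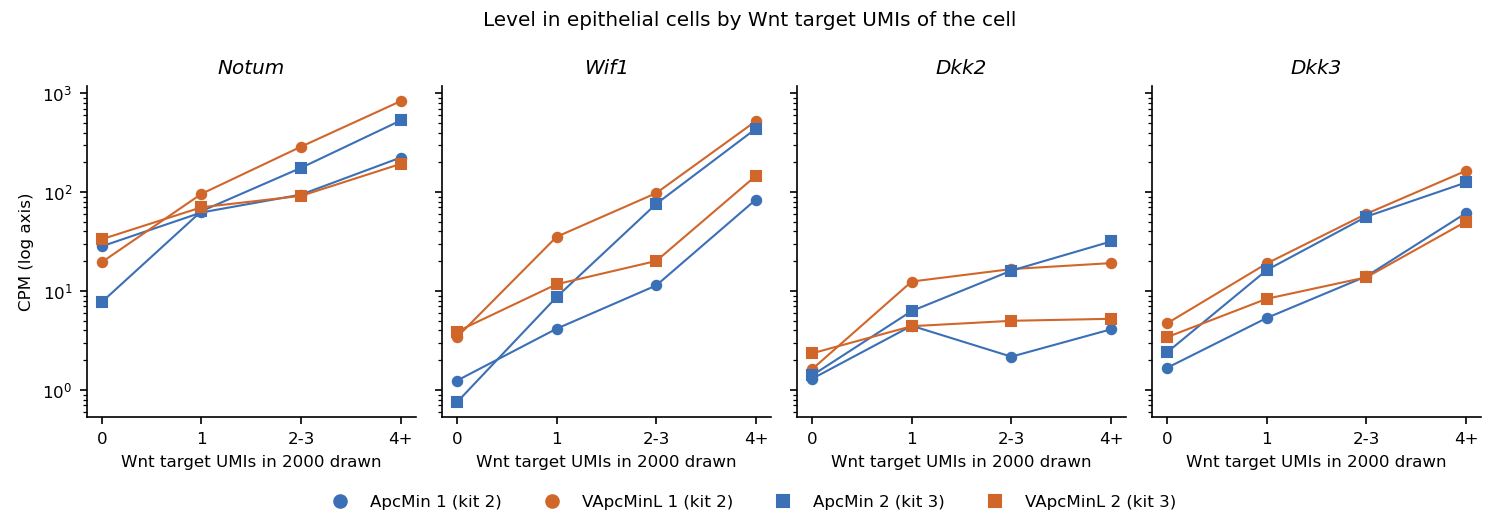
CPM of each gene (y axis, log scale) in epithelial cells grouped by Wnt target UMIs among 2000 drawn UMIs (x axis), 1 line per library. Wif1 climbs from at most 3.90 to at least 84.2 in all libraries, and Dkk2 from at most 2.35 to between 4.11 and 31.7.

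Cells with at least 2 target UMIs (200, 409, 270 and 1064 cells) were tested against cells with 0, on the UMIs left after the draw. All 4 inhibitors were called higher, where 18.1% of 13013 genes were called higher by edgeR. Log2 changes were 3.17 for Notum (SE 0.72, adjusted p = 0.023), 5.32 for Wif1 (SE 0.90, adjusted p = 0.013), 2.21 for Dkk2 (SE 0.52, adjusted p = 0.025) and 3.62 for Dkk3 (SE 0.40, adjusted p = 0.0033). Lef1, itself a Wnt target, rose by 3.25 (adjusted p = 0.020). Wif1 was among the 8 genes with the largest rise by the rule for named genes, with Bpifb5 (6.05), Spock2 (5.73), Pnliprp1 (5.41), Ptn (4.38), Asb4 (4.21), Prox1 (3.79) and Dkk3. Prox1 is 1 of the 10 targets that chose the cells, so its rise was set by the split.

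The Dkk3 call was made in every alternative run. Without VApcMinL 1 the log2 changes of Notum, Wif1 and Dkk2 were 2.61, 4.83 and 1.87 and no longer called (adjusted p = 0.097, 0.063 and 0.12), and without ApcMin 2 those of Notum and Dkk2 were 2.54 and 1.68 (adjusted p = 0.066 and 0.078). In the ApcMin libraries alone Dkk2 was not called (2.43, adjusted p = 0.068). Enterocyte genes were lower in the target-positive cells, with a summed level of 1053 to 2712 CPM against 12053 to 53856 in target-negative cells, and the part of this difference in the result was not tested. Igfbp4 (1.90) was the antagonist that rose with the targets, of 2 tested. Wls (1.00) and Lrp5 (0.35) rose and Kremen2 fell by 2.81. Without VApcMinL 1, Igfbp4 (1.62, adjusted p = 0.097), Wls (0.85, adjusted p = 0.12) and Lrp5 (0.35, adjusted p = 0.17) were not called. Without ApcMin 2 they were at 1.52, 0.79 and 0.30 (adjusted p = 0.059, 0.072 and 0.11), and Lrp5 was also not called with DESeq2 (0.34, adjusted p = 0.082).

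Between the genotypes, no inhibitor was called in epithelial cells, in their Wnt-target-positive cells or, for the 2 that could be tested there, in stromal cells. In epithelial cells the kits disagreed in direction. Immune cells were not tested. In epithelial cells, edgeR with the kit as a block called 0 of 14613 genes (0%), while 49 had an unadjusted p under 0.05 and DESeq2 called 18. VApcMinL over ApcMin, the log2 changes were 0.67 for Notum (SE 0.61), 1.22 for Wif1 (SE 1.90), 0.38 for Dkk2 (SE 0.77) and 0.70 for Dkk3 (SE 1.11), each with an adjusted p of 1. With kit 2, VApcMinL 1 was above ApcMin 1 by 1.71, 4.14, 1.65 and 2.65 on the log2 scale, and with kit 3, VApcMinL 2 was below ApcMin 2, with -0.21, -1.47, -0.69 and -1.04. The groups overlapped for all 4 genes.

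The share of positive epithelial cells was compared after drawing 2000 UMIs per cell. Notum was detected in 6.78% of cells in ApcMin 1 (exact binomial 95% interval 5.60 to 8.12%), 14.5% in VApcMinL 1 (13.0 to 16.2%), 6.94% in ApcMin 2 (5.82 to 8.19%) and 10.1% in VApcMinL 2 (9.18 to 11.1%). Here VApcMinL was higher with both kits, by 7.76 and 3.17 percentage points, so that with kit 3 the share was higher and the level lower in VApcMinL 2. The group means were 6.86 ± 0.11% and 12.3 ± 3.1% (SD, n = 2), with a two-sided exact permutation p = 0.33, the smallest that 2 against 2 libraries allow. Positive cells differed in content: with all UMIs counted, a Notum-positive cell held on average 10.2 Notum UMIs in ApcMin 2 and 3.20 in VApcMinL 2.

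Wif1 was detected in 0.871% (0.477 to 1.46%), 7.74% (6.61 to 9.0%), 3.60% (2.80 to 4.55%) and 1.79% (1.40 to 2.26%) of epithelial cells of ApcMin 1, VApcMinL 1, ApcMin 2 and VApcMinL 2. Dkk3 had 0.560%, 5.34%, 2.74% and 2.20%, and Dkk2 0.435%, 1.10%, 0.753% and 0.665%. For these 3 genes the sign of the difference was opposite between the kits (Wif1 6.87 and -1.81, Dkk3 4.78 and -0.54, Dkk2 0.66 and -0.09 percentage points), and the exact permutation p was 0.67 for each. Intervals cover counting error only.

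At the same draw, immune cells, which should lack the inhibitors, had Notum in 0.261%, 1.99%, 0% and 1.96% of cells and Wif1 in 0.261%, 0.855%, 0% and 0.392%. Their median depth was 3554 to 4888 UMIs against 14800 to 27746 in epithelial cells. For Dkk3 the immune shares were 1.83%, 1.99%, 0% and 2.35%, and the epithelial share of ApcMin 1 was below its immune share. In VApcMinL 2 the epithelial share, 2.20% (1.76 to 2.71%), was within counting error of the immune share.

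**Figure D3:**
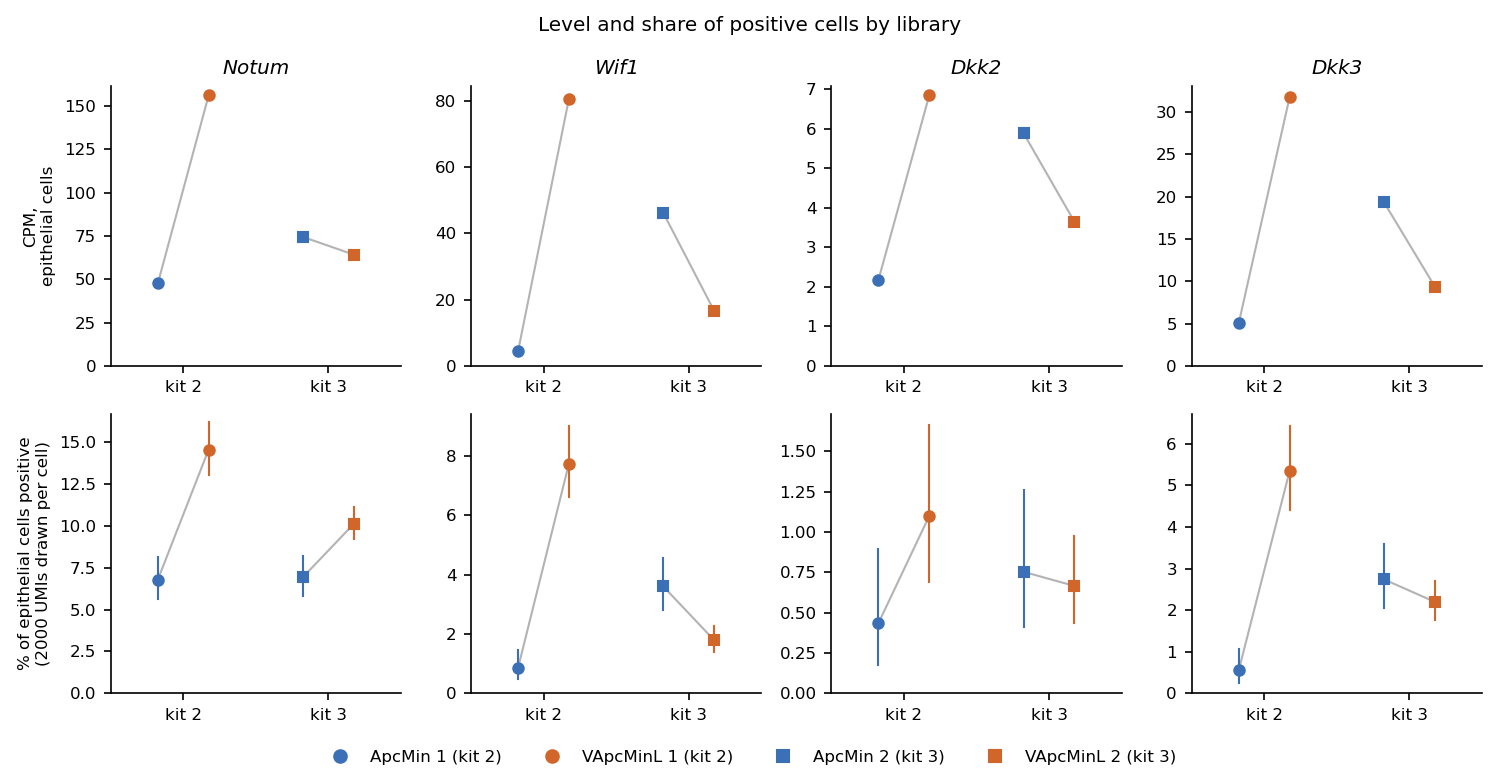
CPM in epithelial cells (upper row) and the percentage of epithelial cells positive among 2000 drawn UMIs (lower row, bars are exact binomial 95% intervals), with the libraries of 1 kit joined by a line. All lines of the upper row go up with kit 2 and down with kit 3, and only the Notum share goes up with both.

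In Wnt-target-positive epithelial cells, 0 of 12506 genes (0%) were called between the genotypes, with 45 at an unadjusted p under 0.05 and 9 called by DESeq2. Each inhibitor was high in VApcMinL 1 and ApcMin 2 and low in the other libraries. Notum was at 589 and 361 CPM in VApcMinL 1 and ApcMin 2, and at 110 in both ApcMin 1 and VApcMinL 2. Wif1 was at 332 and 264 in the first pair and at 19.9 and 42.5 in the second, and Dkk3 at 118 and 92.3 against 19.7 and 20.3. Dkk2 followed with 18.1 and 24.2 against 2.40 and 5.05. The Wnt target list did the same, at 2016 and 1915 against 781 and 970 CPM.

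In stromal cells edgeR called 1 of 8073 genes (0.0124%), which was none of the inhibitors. Dkk3 had a log2 change of -0.03 (SE 0.28) and Wif1 of 0.33 (SE 0.98). In fibroblasts the groups overlapped for Dkk3, whose difference between genotypes was 0.44 with kit 2 and -0.23 with kit 3 on the log2 scale. None of the other antagonists, receptors or Wnt targets was called between genotypes in epithelial or stromal cells (6, 6 and 10 tested in epithelium, 3, 4 and 2 in stroma).

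Detection in the same cell was counted over all UMIs, with odds ratios pooled over 10 bins of depth, since positive cells were deeper (a median of 34593 against 26405 UMIs for Notum in ApcMin 2). These are descriptions, as cells of a library share their source. Notum accompanied the other inhibitors: 85.3% of Wif1-positive, 86.6% of Dkk3-positive and 83.5% of Dkk2-positive epithelial cells had a Notum UMI, whereas Notum was found in 22.4% to 52.4% of all epithelial cells. With 5000 UMIs drawn per cell, the shares with Notum were 73.7%, 61.3% and 45.7%. In VApcMinL 2, 11 of 44 Dkk2-positive cells had Notum at that draw, where depth alone gave 10.1. Cells with all 4 numbered 2, 32, 19 and 6, and cells with none 1062, 1172, 1373 and 1718.

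For Notum and Wif1 the odds ratio was 13.3, 11.9, 21.3 and 6.37 in ApcMin 1, VApcMinL 1, ApcMin 2 and VApcMinL 2, and for Notum and Dkk3 it was 9.40, 28.0, 41.2 and 5.59. Wif1 and Dkk3 had 17.2, 11.4, 22.2 and 4.09. These 3 pairs were above 4 in every library over all UMIs, but at 5000 drawn UMIs Notum and Dkk3 had 3.80, 12.7, 19.8 and 3.12, and the mean log2 odds ratio of that pair went from 3.97 to 2.88. Notum and Dkk2 had 4.36, 13.5, 14.5 and 2.65, and 5.19, 8.10, 4.65 and 1.13 at 5000 drawn UMIs. Wif1 and Dkk2 had 3.61, 5.22, 3.48 and 1.36.

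Dkk2 and Dkk3, the Dickkopf family members, had odds ratios of 1.21, 4.28, 9.57 and 0.402, the lowest of the 6 pairs in every library but ApcMin 2, where Wif1 and Dkk2 were lowest. In VApcMinL 2 they met in 12 cells, where depth alone gave 25.2, while in ApcMin 2 they met in 43 cells against 13.5. On the log2 scale the mean odds ratio was 1.08 with an SD of 2.01 over the 4 libraries, against 1.62 (SD 0.83) for Wif1 and Dkk2, which overlaps it, 3.53 (SD 1.08) for Wif1 and Dkk3 and 3.60 (SD 0.72) for Notum and Wif1.

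**Figure D4:**
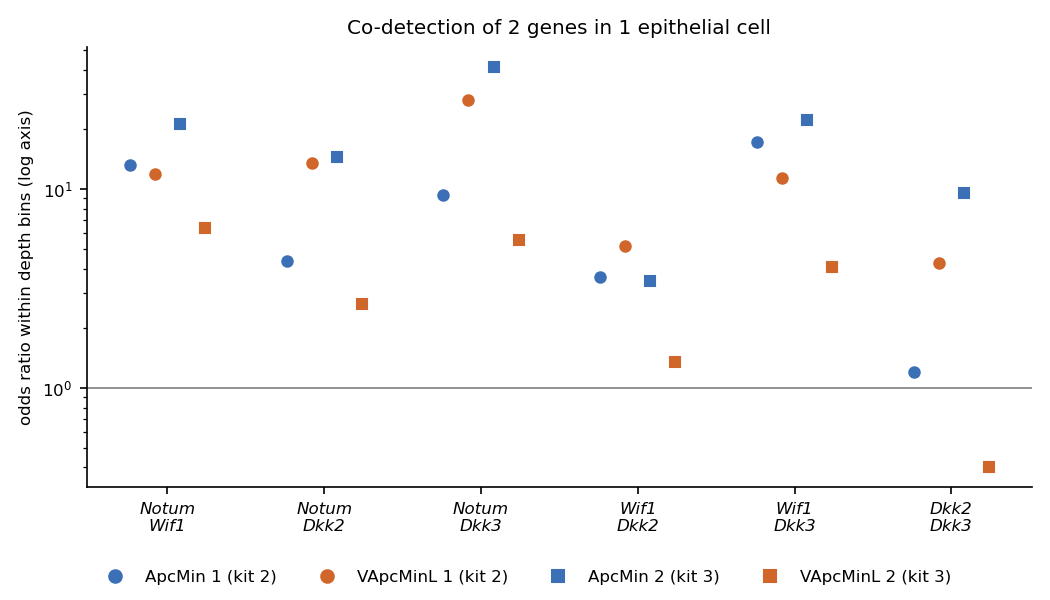
Odds ratio of detecting 2 genes in 1 epithelial cell within bins of depth (y axis, log scale, line at 1) for each pair of genes (x axis), 1 point per library. Over all UMIs, Notum, Wif1 and Dkk3 pairs lie above 4 in all libraries, and Dkk2 with Dkk3 spreads from 0.402 to 9.57.

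The genes that went with each inhibitor were read from UMIs left after a draw of 2000 (Notum) or 5000 (others) UMIs, which chose the positive cells. Notum-positive cells (109, 291, 129 and 395) were above Notum-negative cells for Wif1 by 3.09 (log2, SE 0.20, edgeR adjusted p = 4.8e-04), Dkk3 by 2.40 (SE 0.27, adjusted p = 0.0031) and Dkk2 by 1.62 (SE 0.33, adjusted p = 0.021), where 11.0% of genes were called higher. In ApcMin 1, Wif1 was at 18.9 CPM of the summed UMIs tested in positive and 3.17 in negative cells, and in VApcMinL 1 at 366 and 29.3. The kit 3 values were 325 and 20.04 in ApcMin 2 and 70.4 and 10.3 in VApcMinL 2. All 10 Wnt targets rose with Notum in the fit of all libraries. Without VApcMinL 1 only 30 of 13041 genes were called higher in this split, and without ApcMin 2 only 220 of 12982. The Dkk2 call was lost without VApcMinL 1 (log2 change 1.15, adjusted p = 0.13), without ApcMin 2 (1.56, adjusted p = 0.079) and in the ApcMin libraries alone (1.16, adjusted p = 0.15).

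Wif1-positive cells (20, 212, 98 and 126) were higher for Notum by 2.78 (SE 0.28, edgeR adjusted p = 8.5e-05), Dkk3 by 3.21 (SE 0.25, adjusted p = 2.0e-05) and Dkk2 by 2.21 (SE 0.30, adjusted p = 4.1e-04), against 12.2% of all genes. Dkk3 was at 94.98, 138, 141 and 57.7 CPM in the positive cells of ApcMin 1, VApcMinL 1, ApcMin 2 and VApcMinL 2 and at 3.40, 16.8, 10.5 and 7.23 in the negative cells. The positive cells were above the negative cells in every library. Of the Wnt targets 9 of 10 rose, all but Ascl2 (-0.19, adjusted p = 0.49), and Kremen2 fell by 3.54.

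Dkk3-positive cells (36, 213, 102 and 148) were higher for Wif1 by 3.52 (SE 0.33, edgeR adjusted p = 3.3e-04) and Notum by 2.25 (SE 0.24, adjusted p = 6.3e-04), where 12.5% of genes were called higher. Dkk2 had a log2 change of 1.45 (SE 0.62, adjusted p = 0.12), higher in 3 of 4 libraries and at 2.05 against 3.87 CPM in VApcMinL 2. Without VApcMinL 2 it was called (2.12, adjusted p = 0.0025), as it was in the ApcMin libraries alone (2.73). Trabd2b (1.91), a protease that cleaves Wnt ligands, and Igfbp4 (1.03) rose with Dkk3, of 3 antagonists tested. Trabd2b was at 1.90, 3.01, 2.87 and 0 CPM in the positive cells, above the negative cells in 3 of 4 libraries, and was not called without ApcMin 1 (1.90, adjusted p = 0.072) or ApcMin 2 (1.34, adjusted p = 0.30). Igfbp4 was not called without VApcMinL 1 (0.93, adjusted p = 0.072).

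The genes most like Notum, Wif1 and Dkk3 by the rule for named genes were largely shared. Serpina3n, Spock2, Pnliprp1, Gulo and Bpifb5 were among the 8 largest rises for each of the 3, and Vim and Ptn for Notum and Wif1. Spock2 (a secreted proteoglycan) rose by 4.02, 5.35 and 4.11 with Notum, Wif1 and Dkk3, and Pnliprp1 (a pancreatic lipase-related protein) by 4.06, 4.73 and 3.93. These genes were uneven between libraries: in Wif1-positive cells Spock2 was at 47.5 CPM in ApcMin 1, 351 in VApcMinL 1, 459 in ApcMin 2 and 26.4 in VApcMinL 2. The enterocyte list was at 1009 to 4819 CPM in Notum-positive cells and 9149 to 44876 in Notum-negative cells. Scaling by TMM moved all genes by 0.21 to 0.32 on the log2 scale in these splits.

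Dkk2-positive cells (14, 43, 28 and 44, at a minimum of 10 cells chosen after the numbers were seen) shared Wif1 and Lcn2 with the largest rises named for Dkk3. Wif1 rose by 2.17 (SE 0.29, edgeR adjusted p = 0.0058) and Notum by 0.84 (SE 0.21, adjusted p = 0.045), in a comparison that called 1.74% of genes higher, and Dkk3 had 0.21 (SE 0.45, adjusted p = 0.83). Dkk3 was at 3.33, 48.8, 52.1 and 0.888 CPM in the positive cells and at 4.85, 30.2, 19.0 and 9.47 in the negative cells, higher in VApcMinL 1 and ApcMin 2 only. The epithelial cells Dkk2-positive at a draw of 2000 UMIs were a smaller set. Endothelial markers, summed over all UMIs of these cells, were at 16.1, 75.9, 77.0 and 57.8 CPM. Epithelial cells Dkk2-negative at that draw had 69.2, 34.8, 33.4 and 84.1, without a common direction. The Notum call was lost without ApcMin 1 (0.97, adjusted p = 0.11), VApcMinL 1 (0.70, adjusted p = 0.28) or ApcMin 2 (0.70, adjusted p = 0.078), and the Wif1 call without ApcMin 1 (2.26, adjusted p = 0.051).

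The largest rises with Dkk2 were Fn1 (fibronectin, 2.52), Thbs1 (thrombospondin, 2.40), Wif1, Stra6 (the retinol transporter, 2.13), Npnt (nephronectin, 2.11), Tnfrsf11b (osteoprotegerin, 2.09), Fam89a (2.02) and Lcn2 (1.97). Fn1 was at 116, 96.4, 117 and 119 CPM in the positive and 20.2, 9.39, 12.2 and 34.3 in the negative cells of ApcMin 1, VApcMinL 1, ApcMin 2 and VApcMinL 2, alike in all libraries. Lcn2 was uneven, at 6.65, 865, 313 and 7.10 CPM in the positive and 5.51, 95.6, 44.5 and 6.36 in the negative cells. Its rise thus came from VApcMinL 1 and ApcMin 2. Of the Wnt targets 4 of 10 rose: Tnfrsf19 (1.40), Tcf7 (1.24), Sp5 (1.06) and Nkd1 (1.05). Spock2 (0.16), Pnliprp1 (0.46), Mt3 (0.03), Serpina3n (-0.94), Vim (1.53) and Col9a3 (0.35), which rose with the other inhibitors, were not called. Other genes of that kind were called higher with Dkk2 too: Bpifb5 (1.79, edgeR adjusted p = 0.0495), Ptn (1.63, adjusted p = 0.0028) and Gulo (1.22, adjusted p = 0.035). In all, 1019 of 12280 genes were called, 214 higher and 805 lower (DESeq2 384 and 772), and from 54 to 2271 when 1 library was left out, the lowest without ApcMin 1 and the highest without VApcMinL 2.

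**Figure D5:**
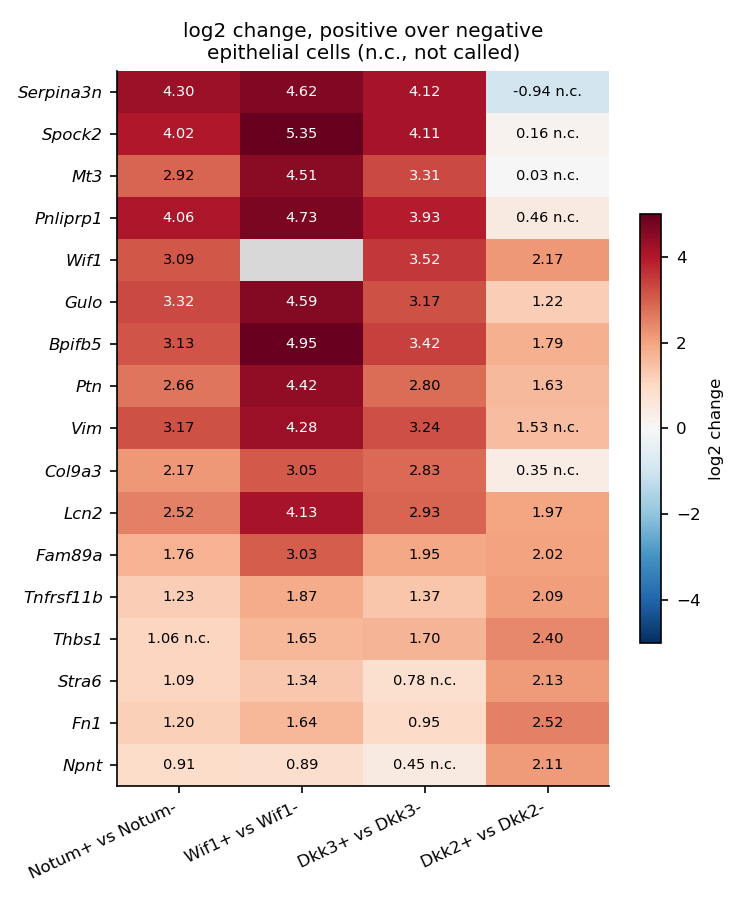
Log2 change between epithelial cells positive and negative for each inhibitor (columns, color scale and printed values) for the genes named by the rule as rising most (rows); n.c. marks values not called by edgeR, and the gray field is Wif1 in its own split. Spock2 is at 4.02, 5.35 and 4.11 in the Notum, Wif1 and Dkk3 columns and at 0.16 in the Dkk2 column, where Fn1 is highest at 2.52.

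Dkk2-positive cells without Wif1 UMIs in the draw (14, 24, 21 and 38) were then compared directly with Wif1-positive cells without Dkk2 (20, 193, 91 and 120), a comparison chosen after the values above were seen. Notum was at 63.2, 149, 147 and 74.7 CPM in the Dkk2 cells of ApcMin 1, VApcMinL 1, ApcMin 2 and VApcMinL 2 and at 315, 781, 650 and 222 in the Wif1 cells. Dkk3 was at 3.33, 15.1, 45.9 and 1.08 against 94.98, 139, 152 and 61.3. Both were lower in the Dkk2 cells of every library. Wif1-positive cells were already above Wif1-negative cells for both genes, so the choice of cells bears on this direction and no test is given for it. Dkk2-negative cells, without regard to Wif1, had Notum at 48.8, 148, 73.1 and 64.2 CPM. The same holds for the Wnt targets that rose with Wif1.

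Prox1 was at 96.5, 60.3, 163 and 68.2 CPM in the Dkk2 cells and at 341, 499, 731 and 378 in the Wif1 cells. Ascl2, a transcription factor of crypt stem cells that did not rise with Wif1, was at 76.5, 65.9, 23.0 and 67.1 CPM in the Dkk2 cells and at 20.8, 24.5, 15.6 and 49.1 in the Wif1 cells, higher by 1.03 (edgeR adjusted p = 0.041). Of 7207 genes, 2.83% were called higher in the Dkk2 cells and 3.32% lower. The largest rises in the Dkk2 cells were Ly6a (4.33), Gpx5 (3.96), Il1rn (3.62), Anxa1 (3.43), Sprr2a3 (3.26), Anxa3 (3.13), Tff2 (3.06) and Ndrg1 (2.23). Some were uneven between libraries. Gpx5 was at 79.8, 461, 4086 and 41.1 CPM in the Dkk2 cells against 20.8, 8.89, 101 and 29.9 in the Wif1 cells. Tff2 was at 908, 134, 7.66 and 23.8 against 11.9, 17.4, 3.38 and 10.4. Pnliprp1 (-5.46), Spock2 (-5.03), Npy (-4.89) and Rbp4 (-3.66) fell most. Pnliprp1 and Spock2 were among the largest rises with Wif1 (4.73 and 5.35), so the choice of cells bears on their fall as well.

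Ly6a, which encodes the surface antigen Sca-1, was at 120, 250, 105 and 35.7 CPM in the Dkk2 cells against 5.94, 7.04, 1.69 and 8.23 in the Wif1 cells and 30.5, 26.7, 16.9 and 19.0 in Dkk2-negative epithelial cells. Endothelial cells, which also held Dkk2, had 1301, 1175, 1683 and 573 CPM of Ly6a. The 6 endothelial markers summed to 46.6, 39.6, 101 and 113 CPM in the Dkk2 cells and to 119, 58.2, 58.5 and 94.5 in the Wif1 cells, against 4540 to 5802 in endothelial cells. Cldn5 was at 0 in the Dkk2 cells of all libraries, and Pecam1 and Kdr were at 0 in all but VApcMinL 2. In that library Pecam1 was at 14.1 and Kdr at 15.15 CPM (13 and 14 UMIs) in the Dkk2 cells. Dkk2-negative epithelial cells of VApcMinL 2 had 0.528 and 0.381 CPM. The source of these UMIs was not tested. Cdh5 alone gave 26.6, 26.4, 80.4 and 45.45 CPM of the sums in the Dkk2 cells. The sums of the Dkk2 cells held from 300629 to 924093 UMIs, so genes of low level could not be compared at this depth.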

How the data were processed

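Adenoma cells were profiled in 4 libraries, 2 ApcMin and 2 VApcMinL, and the labels give 1 kit to each replicate number. The authors deposited raw UMI counts per gene and barcode. The submitters' notes name Cell Ranger 2.1.1, Seurat 3.1.1 and mm10, and the kit 3 matrix headers name Cell Ranger 3.1.0. Genes not listed for all libraries, left out here, held 0.192 to 0.568% of UMIs. Library totals were 44660305, 49009488, 98714025 and 128247396 UMIs.

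Gates needed 3 marker UMIs, 2 distinct markers and 70% of all lineage marker UMIs, with 8 epithelial, 11 immune (of 12 listed), 6 fibroblast and 6 endothelial genes. Doublets were left to the gate. Scrublet (scanpy 1.11.5, at 0.8% per 1000 cells) was an alternative and marked 276 of 11286 cells. Beside 0, limits are 3 counts of the total.

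UMIs were summed per library, since cells are not replicates, and tested with edgeR 4.0.16 (TMM, filter at a minimum count of 10, adjusted p under 0.05) in R 4.3.3; DESeq2 1.42.0 was an alternative. The SE of a log2 change was taken as its size over the square root of the F statistic. Genotype fits had the kit as a block, and splits of cells the library. The edgeR step was run on simulated counts with a single small spread for all genes and no kit or library effect. That setting checks the code and does not measure power in these libraries. With the replicate number marking the kit, same-numbered libraries deviated together (r = 0.18 over 14613 genes). Splits needed 20 positive cells per library, so Wif1 and Dkk3 used 5000 drawn UMIs. For Dkk2 the minimum was 10.

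The 4 genes, marker lists, Wnt lists and tests were chosen with earlier results of these data known. Named genes were the 4 genes, Lef1, the lists, and for each split the 8 largest rises and 4 largest falls among called genes, with at least 50 CPM in the higher set and 1 direction in all libraries. Other genes named (Xist, and genes of one split read in another) were picked with their values in view. The largest falls of the splits by 1 inhibitor are not reported here. No column of the authors' own comparisons was used.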

Additional observations from a re-analysis of the deposited data

Results flagged for a closer look

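The difference between VApcMinL and ApcMin in epithelial cells had opposite signs with the kits for each of the 4 genes. On the log2 scale it was 1.71 with kit 2 and -0.21 with kit 3 for Notum, 4.14 and -1.47 for Wif1, 1.65 and -0.69 for Dkk2, and 2.65 and -1.04 for Dkk3. Each kit held 1 library per genotype, so the difference between the kits was not tested. Kit, pool of tumors, cell makeup and the sex of the mice, as read from Xist, cannot be told apart. In VApcMinL 1, high for all 4 genes, the Wnt target list was at 2016 CPM in target-positive cells, and in ApcMin 1, low for all 4, it was at 781.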

How the results depend on the processing

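The counts of called genes between genotypes were small under each setting: in epithelial cells 18 with DESeq2, 2 after thinning cells to 2000 UMIs, 2 without the filter, and 0 when 1 library was left out. In target-positive cells they were 9 with DESeq2, 1 without the filter and 0 to 6 with 1 library left out, and in stromal cells 3 with DESeq2, 12 at a gate of 90% and 0 to 19 with 1 library left out. Without the replicate block the counts were 0, 0 and 0, and the block changed no call of the 4 genes, but the log2 change of Dkk2 in target-positive cells became -0.14 and that of stromal Wif1 -0.34.

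In the ApcMin libraries alone, an alternative added after seeing the data, 4027 genes were called between epithelial and immune cells (all libraries 6267), 3028 between stromal and immune cells (5057), 1352 for the Wnt target split (4872), 1750 for the Notum split (3095) and 108 for Dkk2 against Wif1 cells (443), which had 978 without the filter. Fewer libraries enter these fits. With 1 library left out, counts ranged from 1047 to 4144 for the Wnt target split, 601 to 3969 for Notum, 2424 to 4800 for Wif1, 1462 to 4057 for Dkk3, 54 to 2271 for Dkk2, and 149 to 459 for Dkk2 against Wif1 cells. The lowest was without VApcMinL 1 in each, except the Dkk2 split (without ApcMin 1). The cause was not tested.

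Log2 changes that changed sign were Notum between stromal and immune cells at a gate of 90% (0.67) and Dkk3 in the Dkk2 split with DESeq2 (-0.15; -0.26 to 0.73 with 1 library left out), none of them called. Genotype changes with 1 library left out ranged, in epithelial cells, from -0.15 to 1.37 for Notum, -0.82 to 3.37 for Wif1, -0.36 to 1.19 for Dkk2 and -0.59 to 1.96 for Dkk3. In target-positive cells they ranged from -1.11 to 1.55, -1.71 to 3.12, -1.41 to 2.12 and -1.47 to 1.69, and in stromal cells from -2.77 to 2.48 for Wif1 and -0.45 to 0.24 for Dkk3; the lowest was without VApcMinL 1 for all but stromal Dkk3. The difference in the share of Wif1-positive cells went from 2.53 to a range of -0.44 to 5.51 percentage points, negative without VApcMinL 1. The mean log2 odds ratio of Wif1 and Dkk2 was 2.51 over 3 libraries at 5000 drawn UMIs, against 1.62 over 4 libraries with all UMIs. The mean of 2.51 leaves out ApcMin 1, which had 0 joint cells and an odds ratio of 0 at that draw. The settings other than leaving out 1 library include the ApcMin libraries alone. Over these, 166 log2 changes of the 4 genes had the direction and call reported, 5 lost the call, 1 gained it and 4 changed sign.

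With 2 libraries a group, the exact tests could not pass 0.05, and the edgeR genotype fit had 1 residual degree of freedom. Dkk2 counts per library were low, and the few kit 3 stromal cells leave endothelial Dkk2 undetermined there.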

Other observations

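In epithelial cells of VApcMinL 2, Xist UMIs and UMIs of Y-linked genes fell largely into separate cells. Cells with 3 or more Xist UMIs and 0 Y-linked UMIs numbered 960 (24.6%), and cells with 0 Xist and at least 1 Y-linked UMI numbered 2043 (52.3%), with median depths of 23084 and 22890 UMIs. The inhibitors were alike in both: Notum was at 61.7 and 67.3 CPM, Wif1 at 13.4 and 16.2, Dkk2 at 3.19 and 3.76, and Dkk3 at 11.1 and 8.98. Lef1 was at 14.7 and 16.4. Another 172 cells (4.40%) held at least 3 Xist UMIs and at least 1 Y-linked UMI, at a median depth of 40987 UMIs. They had Notum at 64.3 CPM, Wif1 at 25.7, Dkk2 at 8.02 and Dkk3 at 7.37. Whether they are doublets was not tested, and the odds ratios of co-detection were not repeated without doublets. In ApcMin 2, cells with 0 Xist and at least 1 Y-linked UMI numbered 1538 (82.7%). They had Notum at 79.8 CPM, Wif1 at 49.2, Dkk2 at 6.28, Dkk3 at 20.5 and Lef1 at 9.88. With kit 3, such cells of both genotypes can thus be set side by side. No test was run, as each set of cells comes from 1 library.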
